A study of Mus musculus with 6 samples.

Results

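The genes described here follow skeletal muscle from its resting stem cell to the fused fibre. They are 10 genes of the deposited read count table, taken by symbol and set in 3 stages: Pax7, Myf5, Cdh15 and Ncam1 for the quiescent satellite cell, Myod1, Myog, Myf6 and Mef2c for the committed cell, and Mymk and Mymx for the fusing cell. The table holds 52110 lines with a gene symbol, and each of the 10 symbols stands on 1 line. RNA came from muscle of wild-type (WT) mice of the strain labelled c57b6l, 3 treated with the agent labelled click and 3 with the agent labelled EDC. The labels give no age, dose, muscle or time after treatment, and no untreated group, so every difference below is click relative to EDC.

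Satellite cells are the stem cells of skeletal muscle. They lie under the basal lamina of the fibre and carry the transcription factor Pax7. When activated they make the basic helix-loop-helix factors Myf5 and MyoD, which bind the E-box CANNTG together with E proteins, then myogenin and MEF2 factors, which turn on the contractile genes. The resulting myocytes join each other or an existing fibre through the membrane proteins myomaker and myomixer. In bulk RNA from muscle, fewer cells of a type and less RNA per cell cannot be told apart.

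The libraries held 34472421 to 39305779 reads. Fast fibre markers summed to 152678 to 225059 CPM in click and 100593 to 172015 CPM in EDC libraries, which fits the tissue label. CPM is the read count of a gene as a share of its library, scaled between libraries by TMM factors, which correct for differing composition. Mitochondrially encoded genes took 18.9% to 30.2% of reads in click and 14.8% to 17.9% in EDC. In replicate 1 of each group the female-specific RNA Xist had more reads than Ddx3y, a gene of the Y chromosome, so these were classed as female. In the other 4 libraries it did not, and they were classed as male. Click replicate 2 lay apart from the other libraries on the first principal component of log2 CPM, at -117 against -30.2 to 74.6.

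No myogenic gene passed the test between click and EDC muscle. Of the 10, 8 had lower fitted levels in click, with log2 fold changes from -1.62 for Mymx to 0.34 for Mef2c and a median of -0.62. Over all 15797 genes tested the median was 0.02, and 48.7% lay below 0. By stage, the median log2 fold change was -0.23 over the 4 quiescent genes, -0.45 over the 4 committed genes and -1.58 over the 2 fusion genes. These stage medians are a description, without a test. They depend on the stage in which each gene was placed, which was not measured. Among the quiescent genes Ncam1, which is not particular to satellite cells, gave -0.95, against -0.45 for Pax7, 0.07 for Myf5 and -0.01 for Cdh15.

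By edgeR's quasi-likelihood test 0 of the 10 genes passed an adjusted p of 0.05, where 0.00633% of all genes tested did, and the adjusted p of the 10 lay between 0.312 and 0.987. At an unadjusted p under 0.05 the edgeR test gave 1, Myod1, lower in click, where 8% of all genes were that low. The DESeq2 Wald test called 0 of them, where it called 2.27% of all genes lower and 1.56% higher. It gave 2 at an unadjusted p under 0.05, Myod1 and Ncam1, both lower, against 10.2% of all genes. Limma-voom called 0, as of all genes (0%), and gave 0 at an unadjusted p under 0.05, against 16.5% of all genes. The 3 click values lay below the 3 EDC values for 1 of the 10, Mymk, against 12.4% of all genes tested, so the count is near that background. For 0 of the 10 they lay above, against 9.84% of all genes. EDC replicate 1 held the highest level of 8 of the 10 genes and click replicate 2 the lowest of 4. Without EDC replicate 1 the median log2 fold change of the 10 genes was -0.31. It was -0.28 in the 4 libraries classed as male.

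**Figure D1:**
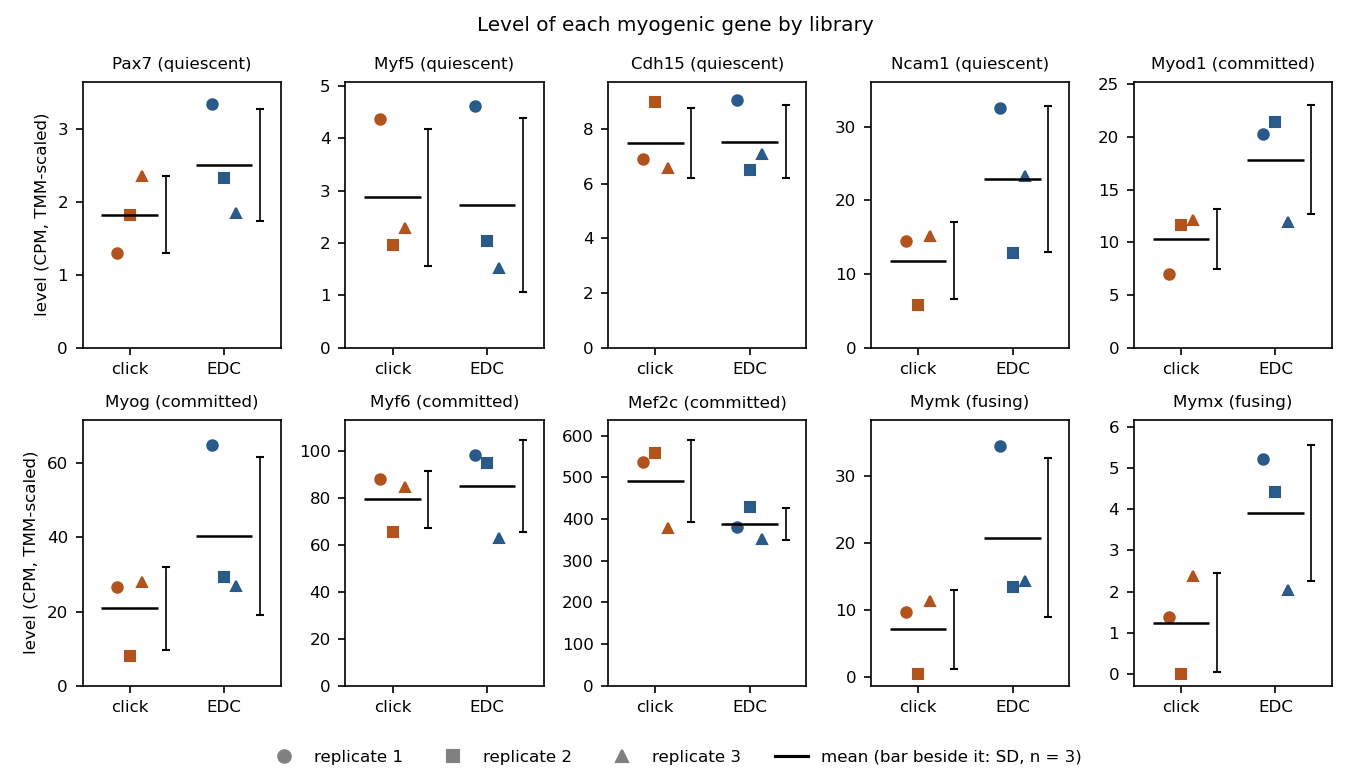
Level of each of the 10 genes in CPM by library, click left and EDC right, with replicates 1 to 3 as circle, square and triangle, the mean as a line and the SD beside it (n = 3). EDC replicate 1 is highest in 8 panels, and Mymk is the panel in which the groups do not overlap.

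Pax7, the paired-box factor that marks satellite cells, spans bases 139737062 to 139833528 of chromosome 4 (minus strand) in mm10. In click, replicates 1 to 3 held 1.30, 1.82 and 2.35 CPM, against 3.34, 2.32 and 1.85 CPM in EDC. These values overlapped, and they rest on 36 to 93 reads in click and 84 to 146 reads in EDC libraries. Its log2 fold change was -0.45 (SE 0.39, edgeR adjusted p = 0.571). In the male libraries alone it was 0.000635, so the lower click mean rests on replicate 1 of each group.

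Myf5, the first myogenic factor to appear in the embryo and also made by satellite cells, spans bases 107482908 to 107486134 of chromosome 10 (minus strand). It stood at 4.38, 1.96 and 2.28 CPM in click, against 4.62, 2.05 and 1.51 CPM in EDC. The highest value in both groups came from replicate 1, the library classed as female. The log2 fold change between the agents was 0.07 (SE 0.53, edgeR adjusted p = 0.956), and it turned to -0.46 when library totals replaced the TMM factors.

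Cdh15 encodes M-cadherin, which holds the satellite cell to its fibre. The gene spans bases 122847966 to 122867397 of chromosome 8 (plus strand). Its levels were 6.91, 8.99 and 6.60 CPM in click and 9.06, 6.52 and 7.08 CPM in EDC, with means of 7.50 ± 1.30 CPM in the click and 7.56 ± 1.33 CPM in the EDC libraries (SD, n = 3 each). No other gene of the 10 had so small a difference between the group means. In log2 units the fold change was -0.01 (SE 0.24, edgeR adjusted p = 0.987), and its sign turned in several alternatives.

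Ncam1 encodes a neural cell adhesion molecule of satellite cells, Schwann cells and fibres that have lost their nerve. It spans bases 49502136 to 49798925 of chromosome 9 (minus strand). Levels were 14.5, 5.79 and 15.1 CPM in click, against 32.6, 12.8 and 23.3 CPM in EDC. EDC replicate 2 lay below click replicates 1 and 3, so the groups overlapped. The log2 fold change was -0.95 (SE 0.46, edgeR adjusted p = 0.359). The summed level of 10 Schwann cell markers was 95.4, 259 and 120 CPM in click and 75.6, 72.7 and 45.3 CPM in EDC. Of these 10, 8 had a log2 fold change above 0 and 2 below 0. The part of Schwann cells in the Ncam1 level was not tested.

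Myod1 encodes MyoD, the factor that commits a cell to the muscle lineage. The gene spans bases 46376474 to 46379099 of chromosome 7 (plus strand). It stood at 6.98, 11.7 and 12.1 CPM in click and at 20.2, 21.4 and 11.9 CPM in EDC. EDC replicate 3 lay just under click replicate 3, and the other EDC libraries lay above all click libraries. In click the mean was 10.3 ± 2.85 CPM, against 17.8 ± 5.19 CPM in EDC (SD, n = 3 each). Its log2 fold change of -0.80 (SE 0.32) came with an edgeR adjusted p of 0.312. That was the lowest of the 10, and 1974 of the 15797 genes ranked at or before it.

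Myog encodes myogenin, the factor of terminal differentiation, which is also raised in fibres after loss of the nerve. It spans bases 134289989 to 134292548 of chromosome 1 (plus strand). Levels were 26.6, 8.04 and 28.0 CPM in click, against 64.9, 29.3 and 26.8 CPM in EDC. EDC replicate 1 stood above the rest and click replicate 2 below them, while the other 4 libraries lay close together. The log2 fold change was -0.95 (SE 0.54, edgeR adjusted p = 0.411), and -0.43 without EDC replicate 1.

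Promoter windows of 3 genes are printed to set genes that differ in their values side by side: Myog, with a lower click mean, Cdh15, with the same mean in both groups, and Pax7, the marker of the stem cell. Each window runs from 250 bases before to 50 bases after the RefSeq start site in GRCm38.p6, 5′ to 3′ on the gene's strand. Capitals mark each match to the E-box CANNTG, a pattern that is its own reverse complement, so both strands give the same matches. The windows are chr1:134289754-134290053 (plus) for Myog, chr8:122848124-122848423 (plus) for Cdh15 and chr4:139832919-139833218 (minus) for Pax7.
Myog: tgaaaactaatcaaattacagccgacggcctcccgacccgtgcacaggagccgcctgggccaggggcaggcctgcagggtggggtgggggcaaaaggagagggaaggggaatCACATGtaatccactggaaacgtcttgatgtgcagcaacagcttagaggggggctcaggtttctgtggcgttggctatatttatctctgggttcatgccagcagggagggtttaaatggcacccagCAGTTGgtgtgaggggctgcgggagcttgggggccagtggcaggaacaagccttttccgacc
Cdh15: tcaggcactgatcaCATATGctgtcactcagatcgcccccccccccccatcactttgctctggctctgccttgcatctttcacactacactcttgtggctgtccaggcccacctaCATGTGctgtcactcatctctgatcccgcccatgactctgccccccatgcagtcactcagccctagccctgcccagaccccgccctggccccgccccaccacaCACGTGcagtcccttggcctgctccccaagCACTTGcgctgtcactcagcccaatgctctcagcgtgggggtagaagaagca
Pax7: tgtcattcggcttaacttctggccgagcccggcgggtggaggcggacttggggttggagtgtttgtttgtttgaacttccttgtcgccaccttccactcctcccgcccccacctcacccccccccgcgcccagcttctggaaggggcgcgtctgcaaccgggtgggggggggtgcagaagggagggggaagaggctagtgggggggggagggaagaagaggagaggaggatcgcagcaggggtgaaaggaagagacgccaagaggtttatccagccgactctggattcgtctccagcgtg
The Myog window holds 2 E-boxes, CACATG beginning 138 bases and CAGTTG beginning 12 bases before the start site. The Cdh15 window holds 4 and the Pax7 window 0. Among 32851 promoter windows of that length in the same table, 72.3% held at least 1 E-box and 6.49% held at least 4. A match is a run of letters, and binding was not measured here.

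Myf6 encodes MRF4, the myogenic factor of mature fibres, and spans bases 107492853 to 107494737 of chromosome 10, on the strand of Myf5 and 6.72 kb from it. It stood at 88.2, 65.6 and 84.8 CPM in click and 98.5, 94.9 and 62.8 CPM in EDC. The lowest value of all was in EDC replicate 3. The difference came to -0.10 on the log2 scale (SE 0.24, edgeR adjusted p = 0.843). The neighbouring genes differed in the order of the libraries: EDC replicate 2 was above click replicate 1 for Myf6 and below it for Myf5.

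Mef2c encodes a MADS-box factor that works with the myogenic factors, and it is also made in endothelial and B cells. It spans bases 83504034 to 83667080 of chromosome 13 (plus strand). Levels were 537, 559 and 377 CPM in click, against 382, 428 and 352 CPM in EDC. Click replicates 1 and 2 lay above every EDC library, and click replicate 3 lay within the EDC range. On the log2 scale the difference came to 0.34 (SE 0.24, edgeR adjusted p = 0.484), and -0.17 with library totals in place of TMM factors. B cell markers summed to 6.84, 89.9 and 186 CPM in click and to 6.73, 8.65 and 17.8 CPM in EDC. Click replicate 3 had the highest B cell sum and the lowest Mef2c of the click libraries. Click replicate 2 had the next highest B cell sum and the highest Mef2c. Endothelial markers summed to 242 to 272 CPM in click and 239 to 283 CPM in EDC. The part of B cells and endothelial cells in the Mef2c level was not tested.

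**Figure D2:**
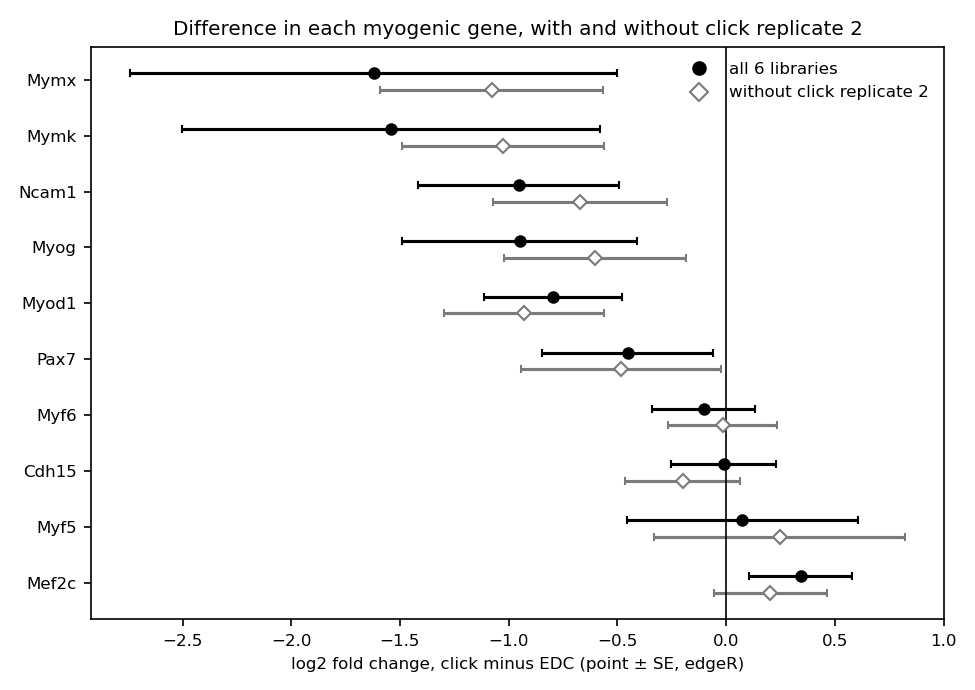
Log2 fold change of each gene, click minus EDC, as point ± SE from edgeR, with all 6 libraries (filled) and without click replicate 2 (open). The fusion genes lie farthest below 0 in both, at -1.62 and -1.54 with all libraries and at -1.08 and -1.03 without click replicate 2.

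Mymk encodes myomaker, the membrane protein that myocytes need in order to fuse. The gene spans bases 27061636 to 27072179 of chromosome 2 (minus strand). It stood at 9.70, 0.40 and 11.3 CPM in click, against 34.5, 13.4 and 14.4 CPM in EDC. All click libraries lay below all EDC libraries, with click replicates 1 and 3 close beneath EDC replicates 2 and 3. The value of click replicate 2 rests on 11 reads, with an exact 95% Poisson interval of 0.1998 to 0.716 CPM. That interval covers counting error only.

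In click Mymk averaged 7.12 ± 5.87 CPM, against 20.8 ± 11.9 CPM in EDC (SD, n = 3 each), a fold of 0.343. The log2 fold change was -1.54 (SE 0.96, edgeR adjusted p = 0.444). Without click replicate 2 it was -1.03 (SE 0.47). It was -0.96 without EDC replicate 1, and between -2.84 and -0.96 over 18 alternatives.

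Mymx encodes myomixer, a micropeptide that acts with myomaker to open the fusion pore. It spans bases 45600971 to 45602102 of chromosome 17 (minus strand). Reads numbered 38, 0 and 94 in click libraries and 228, 160 and 103 in EDC libraries, or 1.37, 0 and 2.38 CPM against 5.22, 4.42 and 2.05 CPM. The 0 in click replicate 2 allows up to 0.109 CPM, the worth of 3 reads. Click replicate 3 lay just above EDC replicate 3, so the groups overlapped. The log2 fold change was -1.62 (SE 1.12, edgeR adjusted p = 0.486), and -1.08 (SE 0.51) without click replicate 2.

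Ratios of reads within a library need no scaling between libraries. Mymk held 0.364, 0.0498 and 0.402 reads per Myog read in click, against 0.532, 0.458 and 0.536 in EDC. The EDC libraries were close to each other and all above the click libraries. On the log2 scale, with 0.5 added to each count, the mean was -2.35 ± 1.67 in click and -0.98 ± 0.13 in EDC (SD, n = 3 each). The difference of -1.37 gave an exact two-sided permutation p of 0.1, the smallest that 3 against 3 libraries allow, and 0.4 after Benjamini-Hochberg adjustment over the 4 ratios tested. Without click replicate 2 the difference was -0.41. Its exact permutation p of 0.1 is again the smallest possible with the libraries left, so it cannot reflect the smaller difference. Without EDC replicate 1, 2 or 3 the difference was -1.33, -1.44 and -1.33, with exact permutation p of 0.4, 0.3 and 0.4.

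The ratio of Myog to Pax7, a measure of differentiating against stem cell transcripts, was 20.4, 4.42 and 11.9 in click and 19.4, 12.6 and 14.5 in EDC. The groups overlapped, with a log2 difference of -0.58 (exact permutation p = 0.5). Without click replicate 2 the difference was 0.02, so it rests on that library. The ratio of Myod1 to Myf5 was 1.595, 5.94 and 5.33 in click and 4.38, 10.5 and 7.87 in EDC, a log2 difference of -0.94 (exact permutation p = 0.3), which was -0.34 without click replicate 1. The ratio of Mymx to Mymk was 0.142, 0 and 0.211 in click and 0.151, 0.329 and 0.142 in EDC, with a log2 difference of -0.81 (exact permutation p = 0.5). That difference was -0.14 without click replicate 2, -0.42 without EDC replicate 2 and -0.49 with an added count of 1 in place of 0.5. Each of these 3 had an adjusted exact p of 0.5.

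**Figure D3:**
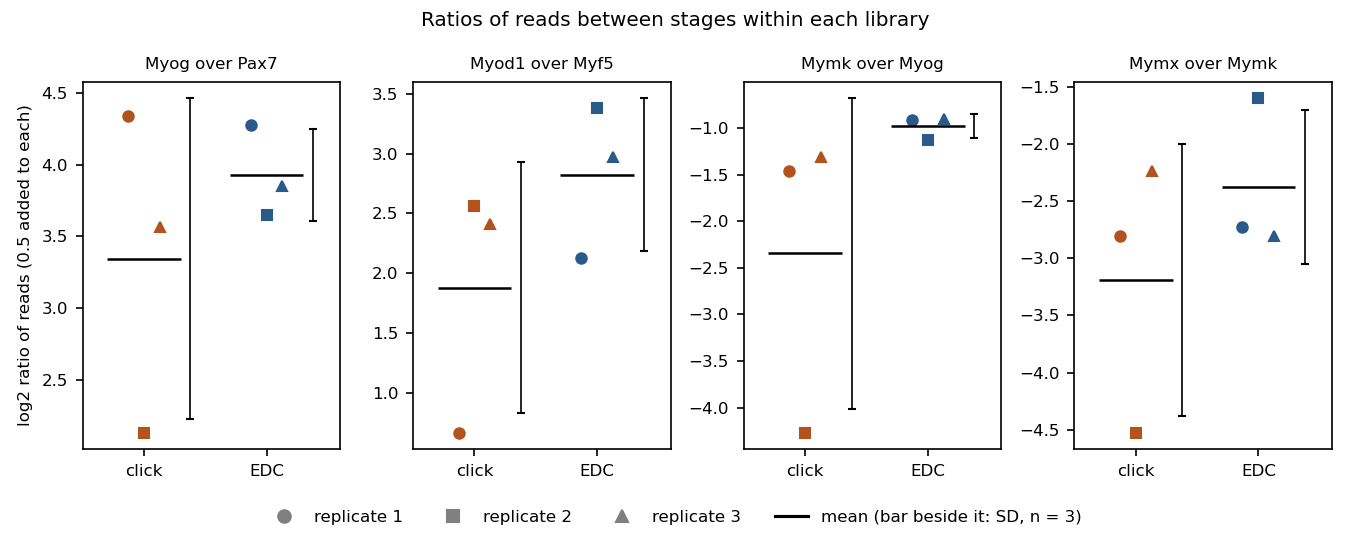
Log2 ratio of reads of a pair of genes within each library, with 0.5 added to each count, click left and EDC right; the line is the mean and the bar beside it the SD (n = 3). The Mymk to Myog ratio is the pair whose groups do not overlap, with click replicate 2 at -4.27.

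Levels of different genes were compared per kilobase of exon (RPKM), with the union of GENCODE M21 exons as the length. Myf6 was first of the 10 in all 6 libraries, at 63.0 ± 9.62 RPKM in click and 67.6 ± 15.5 RPKM in EDC (SD, n = 3 each). Mef2c followed in click at 31.2 ± 6.31 RPKM, against 24.6 ± 2.45 RPKM in EDC. Its exon union of 15.7 kb is long, which lowers its RPKM. Myog stood at 14.0 ± 7.46 RPKM in click and 27.0 ± 14.2 RPKM in EDC, so Mef2c and Myog did not differ beyond their spread in EDC.

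Mymk had 4.71 ± 3.88 RPKM in click and 13.8 ± 7.89 RPKM in EDC, and Myod1 had 5.52 ± 1.53 RPKM in click and 9.59 ± 2.79 RPKM in EDC. The order of this pair was within their spread in both groups. Next came Mymx, Ncam1, Cdh15 and Myf5, whose group means lay between 1.22 and 2.31 RPKM in click and between 1.31 and 3.79 RPKM in EDC. In click Cdh15 lay above Ncam1 in all 3 libraries without overlap, while the values of every other pair of these 4 overlapped, as did those of every pair in EDC. Pax7 was last in 5 of the 6 libraries, at 0.311 ± 0.0896 RPKM in click and 0.427 ± 0.130 RPKM in EDC. In click replicate 2 Mymx and Mymk ranked below Pax7.

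The nearest patterns were sought among 11089 named genes whose log2 CPM averaged 1 or more, which left out Mymx, as the smallest root mean square difference in log2 CPM, each gene centred over the 6 libraries. For Pax7 these were Zfp763 (0.140), Map1a (0.141) and Zfyve27 (0.143). For Myog they were Slc29a3 (0.147), Tubb6 (0.240) and Scarf2 (0.247), and Ncam1 was nearest to it of the 10 genes, at rank 21 (0.332). For Mymk they were Efs (0.318), Plagl1 (0.476) and Cthrc1 (0.481), all with their lowest level in click replicate 2. Of the 10 genes Mymx, measured against Mymk in the same way, was nearest to it (0.490, mean log2 CPM 0.53), with its own 0 reads in click replicate 2, and Myog came next, at rank 344 of the genes searched (1.14). Myod1 was nearest to Pax7 among the 10, at rank 166 (0.273). Mymk differed from Pax7 by 1.83. Ncam1, placed with Pax7 in the quiescent stage, differed from Pax7 by 0.678, at rank 8079.

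Genes of the wider programme were read in 7 lists, and in them too edgeR called 0. Embryonic contractile genes had the lowest median, -1.78 over 7 genes, with 4 lower and 1 higher at an unadjusted edgeR p under 0.05, and DESeq2 called 2 lower and 1 higher. Of all genes tested, 8% were lower and 7.22% higher at that unadjusted p, and DESeq2 called 2.27% lower and 1.56% higher. Myh3, the embryonic myosin heavy chain of new fibres, stood at 31.98, 33.4 and 41.6 CPM in click and 192, 50.5 and 141 CPM in EDC (log2 fold change -1.84, SE 0.46, DESeq2 adjusted p = 0.00899, edgeR adjusted p = 0.298). All click libraries lay below all EDC libraries, as they did for Mymk. Myl4, an embryonic light chain, stood at 43.4, 14.4 and 56.6 CPM in click and 223, 78.4 and 93.0 CPM in EDC (-1.78, SE 0.59). Myh7b, a myosin of slow fibres, was at 5.28, 10.3 and 1.34 CPM in click and 1.35, 1.02 and 0.756 CPM in EDC (2.43, SE 0.71). Of the 7 genes, 5 lay below 0 and 2 above, Myh7b and Actc1. Actc1, the most abundant of the 7, stood at 5414, 7957 and 3170 CPM in click and 1971, 4877 and 1047 CPM in EDC. It gave 1.07 (SE 0.61), and its groups overlapped. With Actc1, the summed level of the list averaged 5669 CPM in click and 3330 CPM in EDC.

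Genes linked to loss of the nerve had a median of -0.56 over 12, with 5 lower and 1 higher at an unadjusted edgeR p under 0.05 and 3 called lower by DESeq2. The acetylcholine receptor subunit genes Chrna1 (-0.90, SE 0.22) and Chrnd (-1.86, SE 0.42), and Sln, whose product inhibits the calcium pump (-2.26, SE 0.49), were those 3. For each, the 3 click values lay below the 3 EDC values. Of the 12 genes, 8 lay below 0 and 4 above. Those above were Dach2 (2.03, SE 0.72), Trim63 (0.39, SE 0.24), Musk (0.38, SE 0.50) and Fbxo32 (0.36, SE 0.35). Dach2 was the 1 higher at the unadjusted p, and its click values lay above its EDC values. Chrna1 and Chrnd are classical targets of the myogenic factors.

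Satellite cell surface, Notch and niche genes had a median of -0.14 over 28, with 4 lower and 0 higher at an unadjusted edgeR p under 0.05, and DESeq2 called 1, Sdc3. Calcr, the calcitonin receptor of quiescent satellite cells, stood at 0.434, 0.182 and 0.202 CPM in click, against 0.869, 0.885 and 0.716 CPM in EDC (log2 fold change -1.59, SE 0.56, edgeR adjusted p = 0.298). These rest on 5 to 12 reads in click and 32 to 38 reads in EDC. Its groups did not overlap. Of the 28 genes, 17 lay below 0 and 11 above. The 3 click values lay below the 3 EDC values for 6 of them, Calcr included, against 12.4% of all genes tested. They lay above for 1, Fgf2 (log2 fold change 1.65, SE 0.74), against 9.84% of all genes tested. Sdc3, a syndecan, stood at 24.4, 10.6 and 27.6 CPM in click and 54.4, 52.8 and 111 CPM in EDC (-1.80, SE 0.45). Igf1, a growth factor for muscle, gave -1.11 (SE 0.39).

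Partners and inhibitors of the myogenic factors had a median of -0.21 over 13, with 2 lower and 0 higher at an unadjusted edgeR p under 0.05. The inhibitors Twist1 (log2 fold change -1.32, SE 0.49) and Twist2 (-3.18, SE 1.01) were those 2. Twist2 was at 0, 0.182 and 0.126 CPM in click and 1.01, 0.332 and 1.55 CPM in EDC. Its values rest on 0, 5 and 5 reads in click and 44, 12 and 78 reads in EDC. Id2, which binds E proteins and keeps them from DNA, gave -0.90 (SE 0.43). DESeq2 called 0 of the 13.

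The MEF2 family and its cofactors had a median of 0.12 over 12, with 2 higher and 1 lower at an unadjusted edgeR p under 0.05. Srf, the serum response factor, stood at 33.97, 34.6 and 30.6 CPM in click and 18.1, 25.7 and 19.5 CPM in EDC (log2 fold change 0.65, SE 0.20, edgeR adjusted p = 0.298). All click libraries lay above all EDC libraries. Smarcd3, a chromatin remodelling subunit that works with MyoD, gave 0.60 (SE 0.25). Prdm1, a repressor also made by immune cells, gave -2.22 (SE 0.73) and was the 1 gene of the list that DESeq2 called.

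Other genes of cell fusion had a median of -0.17 over 25, with 2 lower and 0 higher at an unadjusted edgeR p under 0.05 and 0 called by DESeq2. Those 2 were Kirrel and Myof. Kirrel, an adhesion molecule of the immunoglobulin family, gave -1.10 (SE 0.34). Myof, myoferlin, stood at 22.5, 2.07 and 24.3 CPM in click and 43.0, 47.7 and 120 CPM in EDC (-2.10, SE 0.85). Dock1, which activates the GTPase Rac, gave -0.81 (SE 0.35) with an unadjusted edgeR p of 0.0506. Cell cycle genes had a median of -0.64 over 12, with 3 lower at an unadjusted edgeR p under 0.05, Ccnb2 (-1.57, SE 0.45), Bub1 (-1.44, SE 0.51) and E2f1 (-1.31, SE 0.36). DESeq2 called Ccnb2 and E2f1.

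**Figure D4:**
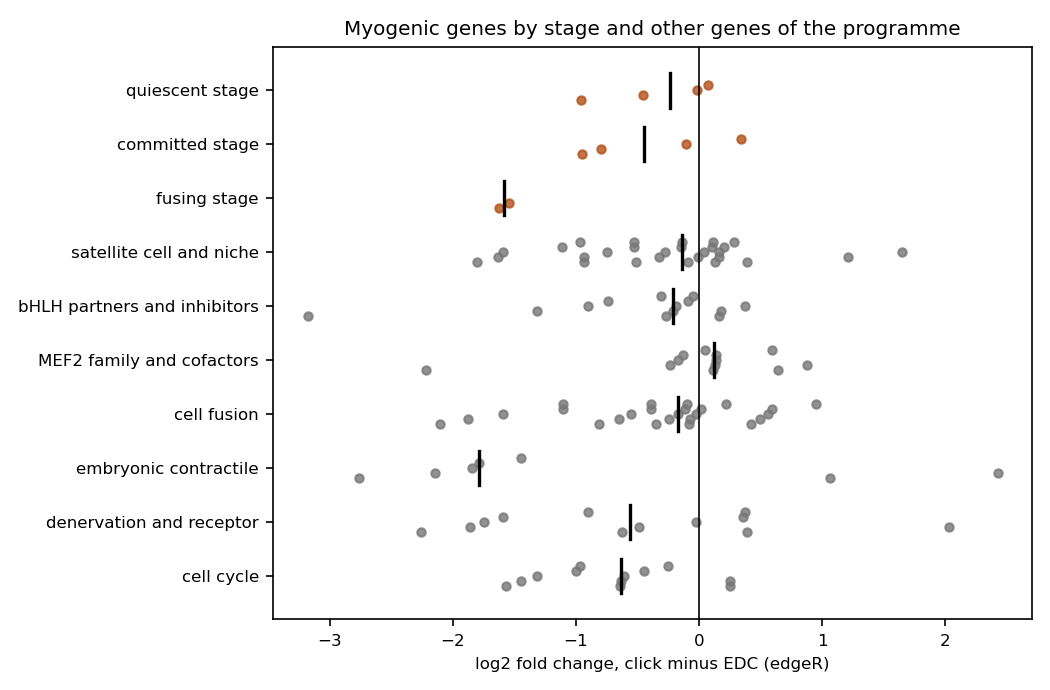
Log2 fold change, click minus EDC, of each tested gene of the 3 stages (orange) and of 7 lists of the wider programme (grey); the black bar is the median. The embryonic contractile genes and the fusing stage have the lowest medians, at -1.78 and -1.58.

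Markers of other cells moved between the same libraries. Macrophage markers, 10 of 10 lower in click, summed to 1133, 159 and 1008 CPM in click and 2195, 1732 and 4077 CPM in EDC. Fibroblast markers, 5 of 8 lower, summed to 2897, 616 and 3529 CPM in click and 5307, 3854 and 6129 CPM in EDC. Most of this sum came from Col1a1 and Col3a1, at 479 and 1974 CPM in click replicate 1 and 1484 and 3136 CPM in EDC replicate 1. The 3 markers above 0 were Dpp4 (1.13, SE 0.60), Ly6a (0.18, SE 0.28) and Pi16 (0.07, SE 0.53). The macrophage and fibroblast sums were both lowest in click replicate 2, the library with the lowest Ncam1, Myog, Mymk and Mymx. Slow fibre markers, 8 of 8 higher, summed to 1131 to 8920 CPM in click and 280 to 591 CPM in EDC. Neutrophil markers, 7 of 7 tested lower, summed to 14.2 to 72.0 CPM in click and 218 to 306 CPM in EDC. Gene by gene, the click values lay below all EDC values for 3 of those 7, against 12.4% of all genes tested. In EDC replicate 2 Mmp9 made up 255 of the 266 CPM. Its S100a8 (1.94 CPM) and S100a9 (1.99 CPM) lay within the click range, and its Csf3r (5.86 CPM) lay above it. T cell markers, 6 of 6 with fitted levels higher in click, summed to 7.74, 29.8 and 175 CPM in click and 19.2, 9.68 and 15.7 CPM in EDC. The sum of click replicate 1 was the lowest of all libraries and that of click replicate 3 the highest. For 0 of the 6 genes did all click values lie above all EDC values, against 9.84% of all genes tested. Smooth muscle markers, 6 of 7 higher, summed to 367 to 450 CPM in click and 299.8 to 341 CPM in EDC. EDC replicate 3 had the highest macrophage sum. In it Myf5, Myf6 and Mef2c were at their lowest, and Myog was below that of click replicate 3. Its Ncam1 (23.3 CPM) and Mymk (14.4 CPM) were above those of every click library. The part of these cells in the myogenic values was not tested.

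**Figure D5:**
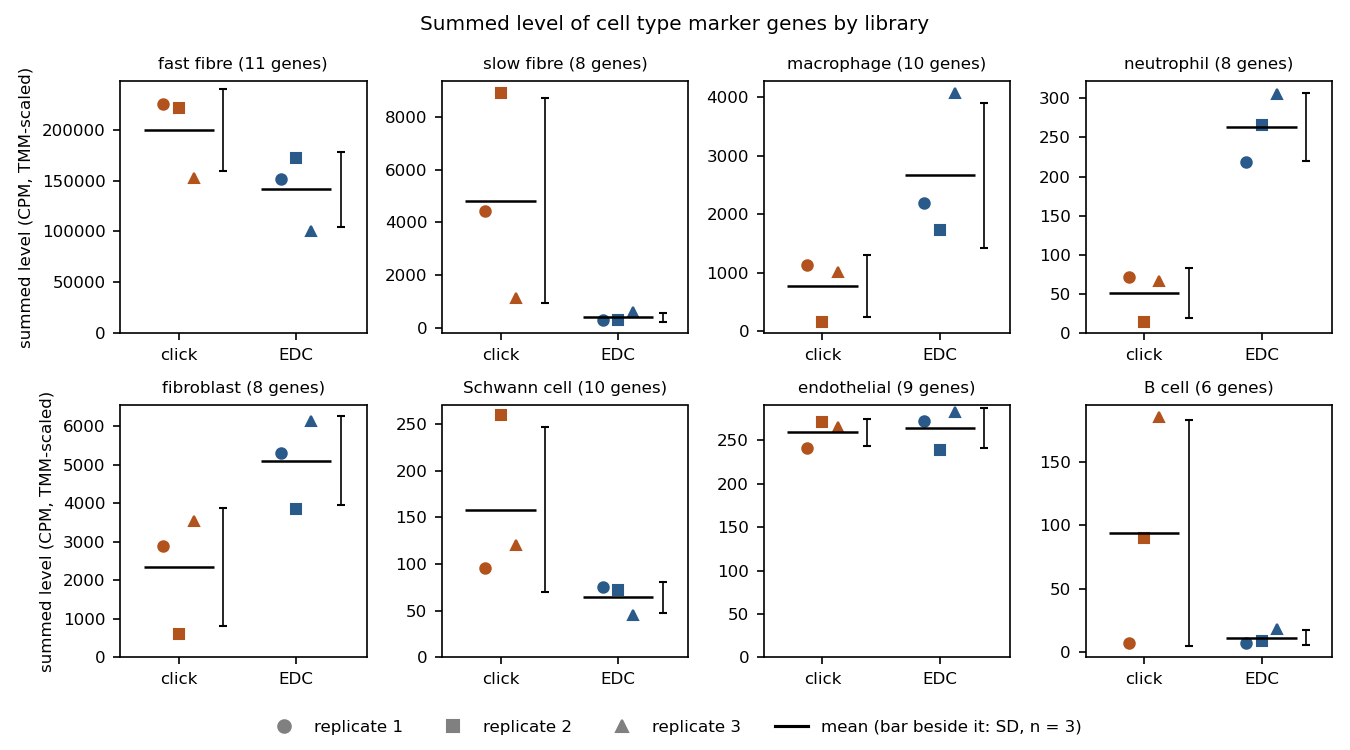
Summed CPM of marker genes of 8 cell types by library, click left and EDC right, with the mean as a line and the SD beside it (n = 3). Macrophage, neutrophil and fibroblast sums of click replicate 2 are the lowest of the 6 libraries. Its low neutrophil sum lies in Mmp9, at 1.35 CPM against 64.6 and 59.9 CPM in click replicates 1 and 3. Its S100a9, at 5.75 CPM, was above click replicates 1 and 3 and EDC replicate 2.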

How the data were processed

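The authors deposited 1 table of raw counts of reads per gene and library, without normalisation. The submitters' processing notes name mm10. Aligner, counter, annotation and strand setting: not given in the sources used here. Lines without a symbol (3225 of 55335, 0.0631% to 0.0996% of a library's reads) were left out. The 10 genes and all lists were chosen with earlier results of these data known. Of 208 list symbols 204 were in the table.

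The main test was edgeR 4.0.16 (R 4.3.3), quasi-likelihood, two-sided, on all 6 libraries, with TMM factors, filterByExpr, robust dispersion and Benjamini-Hochberg adjustment over 15797 genes, threshold 0.05. All 10 genes passed the filter. The SE is the log2 fold change divided by the square root of F. DESeq2 1.42.0 and limma 3.58.1 (voom) were alternatives, with other scalings, filters, covariates and each library left out. Log2 CPM used a prior count of 2. Named genes were the 10, up to 3 with the smallest edgeR p from each list of the programme and 3 nearest patterns each for Pax7, Myog and Mymk. Fgf2, Dach2, Trim63, Musk, Fbxo32, Actc1 and single neutrophil and fibroblast markers were named in addition. Gene positions are from GENCODE M21, promoter windows from RefSeq, GRCm38.p6, which held 5 of the 10 genes. Overlapping antisense reads cannot be told apart without strand; among the 10 genes the only one with such a partner was Ncam1, whose partner had at most 4 reads in a library, and the wider lists were not searched.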

Additional observations from a re-analysis of the deposited data

How the results depend on the processing

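No setting called any of the 10 genes: edgeR, DESeq2 and limma-voom gave 0 called in all 18 alternatives, with 0 to 2 at an unadjusted p under 0.05. Ncam1, Myod1, Myog, Mymk and Mymx stayed below 0 in all 18. Library totals alone moved the median of all genes by -0.47 and nuclear totals by -0.26; with these Myf5 gave -0.46 and -0.19, and Mef2c gave -0.17 with library totals. Cdh15 turned to 0.0074 with upper-quartile factors, 3.77e-04 with sex as a covariate, 0.10 with libraries classed by their ratio of mt-Atp6 to Gm10925 reads (under or over 0.5) and 0.19 in male libraries. Pax7 gave 6.35e-04 in male libraries alone. The causes were not tested. With 1 library left out, log2 fold changes ran from -0.20 to 0.14 for Cdh15, -0.38 to 0.69 for Myf5, -0.28 to 0.0105 for Myf6 and -0.81 to -0.31 for the median of the 10. The ratio of Myog to Pax7 ran from -1.08 to 0.0247. Genes called by edgeR numbered 1 with all libraries and 0 to 7 with 1 left out. DESeq2 called 606 and limma-voom 0 (2602 at an unadjusted p under 0.05). EdgeR called 0 with sex as a covariate (1906 unadjusted), in male libraries (1109) and with the mt-Atp6 class (1677).

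The labels do not pair same-numbered mice. Their deviations from the group means correlated at -0.05, 0.19 and 0.28, and 4 of 6 libraries correlated best with their own number. Blocked by replicate number, edgeR called 0 genes (3673 unadjusted) and 0 of the 10, the lowest adjusted p being 0.106 for Ncam1 (log2 fold change -0.98). The mean paired difference of the ratio of Mymk to Myog is -1.37 by arithmetic, and its exact permutation p of 0.25 is the smallest that 3 pairs allow. Depth limits Pax7, Myf5 and Mymx, which had under 250 reads in each library.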
